A study of Mus musculus with 2 samples.

Results

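The ribosome biogenesis and RNA polymerase I factors described here are 45 protein-coding genes that make the subunits of the ribosome in the nucleolus. The members were named gene by gene with the values of these same libraries in view, so their levels are a description and carry no test. All 45 were found among the 44792 rows of the deposited count table. They were sorted by step into 7 genes of Pol I transcription, 13 of the small subunit processome and small subunit maturation, 14 of large subunit assembly, 7 of the small nucleolar ribonucleoproteins (snoRNPs), and 4 nucleolar proteins that act at several steps.

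RNA was sequenced from OCCM-30, an immortalized mouse line that resembles cementoblasts, the cells that lay down the mineral layer of tooth roots. Of 2 libraries, 1 was made from cells exposed to compression and 1 from control cells of the same line and genotype, in serum-containing culture medium. How strong the compression was and how long it lasted are not stated in the labels, and a single line stands for the tissue. With 1 library per group, every difference below compares these libraries and has no replicate check. Fewer cells of a kind and less RNA per cell cannot be told apart in such bulk samples.

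A ribosome begins with RNA polymerase I, which copies the repeated ribosomal DNA into one long precursor RNA with the help of UBF, RRN3 and the promoter factor SL1. The small subunit processome folds and cuts the front part of that precursor, and other factors build the large subunit around the rest. Small nucleolar RNAs, held in box C/D or box H/ACA proteins, guide the methylation and pseudouridylation of the ribosomal RNA. Genes of this pathway are widely known as targets of the growth factor-responsive transcription factor MYC, which binds the E-box CACGTG, and their output follows the growth rate of a cell.

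The promoters are shown first, since members that lie together in a comparison can be set side by side by sequence. RefSeq promoters of build GRCm38.p6, from 250 bases before to 50 bases after a transcription start, matched 41 of the 45 members; Rrp12, Bop1, Fbl and Npm1 had no entry. Of these 41 genes, 9 held CACGTG, which reads the same on both strands (22.0%), against 11.9% of 9067 genes reaching 1 CPM (reads scaled to a common library total) in either library and 8.09% of all 27025 genes with a promoter. The 10 sites in these 9 genes are printed with up to 12 bases on each side, on the strand of the gene, with the E-box in capitals; the position given is that of the first capital relative to the start used by the promoter entry. For Grwd1 and Wdr43 that start lies inside the gene's full RefSeq span.
Grwd1, chr7:45830740-45830767, minus strand, at 35: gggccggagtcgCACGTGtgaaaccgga
Nop2, chr6:125131811-125131840, plus strand, at -60: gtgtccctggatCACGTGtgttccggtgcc
Tsr1, chr11:74898092-74898121, plus strand, at 25: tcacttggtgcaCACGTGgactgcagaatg
Wdr43, chr17:71616220-71616249, plus strand, at 18: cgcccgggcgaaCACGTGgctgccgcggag
Rrn3, chr16:13780472-13780501, plus strand, at -215: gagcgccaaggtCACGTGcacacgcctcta
Rrn3, chr16:13780639-13780668, plus strand, at -48: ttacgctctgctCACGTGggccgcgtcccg
Utp20, chr10:88826765-88826789, minus strand, at 38: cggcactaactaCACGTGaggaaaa
Ltv1, chr10:13193092-13193121, minus strand, at 29: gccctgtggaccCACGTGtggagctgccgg
Mybbp1a, chr11:72441355-72441376, plus strand, at 41: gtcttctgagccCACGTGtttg
Pes1, chr11:3963965-3963994, plus strand, at 3: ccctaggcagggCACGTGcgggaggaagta
A match of letters is a description of the window and not a bound site, and no match says only that these letters are not in it.

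Rrn3 was the member with more than 1 such site, and its 250 bases upstream of the start are printed whole with both E-boxes in capitals, beside those of Nop2, the other member whose site lay upstream. Rrn3 encodes the initiation factor that carries RNA polymerase I to the ribosomal DNA promoter, and Nop2 a methyltransferase of large subunit RNA.
Rrn3, chr16:13780449-13780698, plus strand: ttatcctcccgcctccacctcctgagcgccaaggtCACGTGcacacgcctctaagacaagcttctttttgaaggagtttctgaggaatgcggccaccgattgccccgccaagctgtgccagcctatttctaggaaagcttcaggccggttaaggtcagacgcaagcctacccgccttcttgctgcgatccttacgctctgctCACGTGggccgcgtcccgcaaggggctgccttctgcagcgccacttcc
Nop2, chr6:125131633-125131882, plus strand: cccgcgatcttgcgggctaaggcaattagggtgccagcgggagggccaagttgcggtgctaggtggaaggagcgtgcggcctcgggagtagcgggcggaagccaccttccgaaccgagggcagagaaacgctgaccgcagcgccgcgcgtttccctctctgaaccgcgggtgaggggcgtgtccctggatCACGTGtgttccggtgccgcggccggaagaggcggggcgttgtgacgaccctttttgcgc
Bases G and C made up 59.6% of the Rrn3 stretch and 67.6% of the Nop2 stretch.

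A further 4 motifs were searched on both strands of the same windows. CCGGAAG, a core of ETS-factor sites, was in 15 of the 41 genes (36.6%), against 20.7% of genes above 1 CPM. ACGTG, the core of hypoxia response elements, which lies inside every CACGTG, was in 17 of 41 (41.5%) against 29.6%. TATAAA, the core element bound by the TATA-binding protein, was in 2 of 41 (4.88%) against 8.24%. The palindromic motif of the factor NRF1 was in 0 of 41, against 2.48% of genes above 1 CPM. In the 96 other pathway genes with a promoter, CACGTG was in 16.7%, CCGGAAG in 44.8% and ACGTG in 38.5%. In the 63 cytoplasmic ribosomal protein genes with a promoter, CACGTG was in 9.52%, CCGGAAG in 41.3% and ACGTG in 31.7%. The ratios of members with and without CACGTG covered overlapping ranges. The 9 genes with it had a median ratio of the compressed over the control library of 0.741 (from 0.581 to 0.960), and the 32 without it had a median of 0.727 (from 0.632 to 0.972).

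Depth was close in both libraries, at 24296292 counts under compressive force and 25049919 counts in control. Ratios were taken on library sizes scaled by trimmed mean of M-values (TMM), with an exact 95% interval that covers counting error only. A gene was called lower at a ratio of at most 0.8, or higher at a ratio of at least 1.25, when it reached 1 CPM in either library and its interval excluded 1. Among the 7 markers of cementoblasts and osteoblasts examined, the collagen gene Col1a1 had 188419 counts under force and 188837 in control. Bone sialoprotein (Ibsp) had 0 in both, which by counting error alone allows up to 0.124 CPM under force and 0.120 CPM in control. Rps2, a cytoplasmic ribosomal protein gene, also had 0 in both, so a 0 here need not mean that the RNA was absent. Of these 7, Runx2, the transcription factor of the bone-forming lineage, was called lower, with 4416 counts under force and 5788 in control, a ratio of 0.787 (0.757 to 0.819). The part of Runx2 in the results below was not tested. Spp1, Alpl, Sp7 and Bglap, also among these markers, had ratios above 1 and were not called. Spp1 had 4769 counts under force and 4460 in control, a ratio of 1.10 with an interval above 1. Alpl had 859 counts under force and 817 in control, and Sp7 had 99 and 98. Bglap, with 12 and 11, was below the CPM minimum. The intervals of Alpl, Sp7 and Bglap included 1. The 9 markers of macrophages, epithelium and endothelium summed to 23.7 CPM under force and 24.4 CPM in control, and 0 of them were called. Only 6 of the 9 reached the CPM minimum, without which no call was possible. The highest levels were 9.96 CPM under force and 11.0 CPM in control.

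All 45 members had a ratio below 1, so each had less of the total in the compressed library than in the control library. The median log2 ratio was -0.43, a median ratio of 0.741, and the members ran from 0.581 for Grwd1 to 0.972 for Nop16. The interval lay below 1 for 42 members, 30 were called lower, and 0 were called higher. Among all 14001 genes above the CPM minimum the median log2 ratio was -0.01, 51.4% had a ratio below 1, and 28.6% had an interval below 1. Of the same genes 11.4% were called lower and 14.3% higher. Since these ratios chose the members, nothing is read from that contrast. All 45 also reached 10 CPM, a level at which 35.6% of genes had an interval below 1, 10.9% were called lower and 11.8% higher. The differences were small in size: at 1.5-fold 8 members were called lower and 0 higher, beside 3.71% of all genes lower and 7.31% higher. At 2-fold 0 members were called in either direction, beside 0.929% of all genes lower and 3.06% higher.

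**Figure D1:**
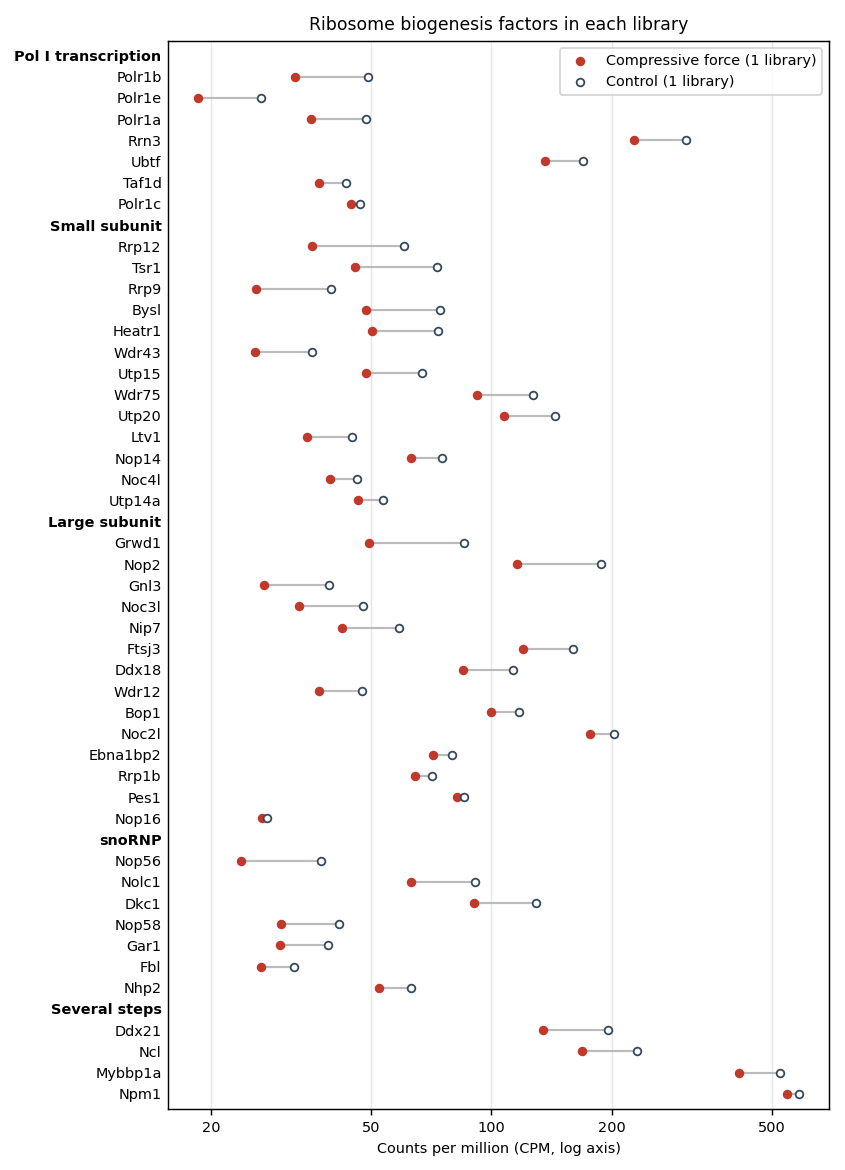
CPM (log axis) of each of the 45 factors in the compressed library (filled red) and the control library (open), grouped by step and ordered by ratio within a step. Every filled point lies to the left of its open partner, by little for Nop16 and Pes1 and by most for Grwd1 and Rrp12.

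No member depended on few reads. The lowest counts were 450 under force and 666 in control, both of Polr1e, and the highest were 13234 and 14700, both of Npm1. All 45 passed the CPM minimum in each library, with levels from 18.5 to 545 CPM under force and from 26.6 to 587 CPM in control. The counts of all members summed to 92411 under force and 122817 in control. Of 990 pairs of members, 463 (46.8%) had intervals that did not overlap. The matching share among pairs of all genes was not computed, so nothing is read from this count. The same holds for single pairs named below whose intervals do not overlap. The call limit fell inside the list, with Mybbp1a at a ratio of 0.792 just inside it and Ubtf at 0.804 just outside.

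**Figure D2:**
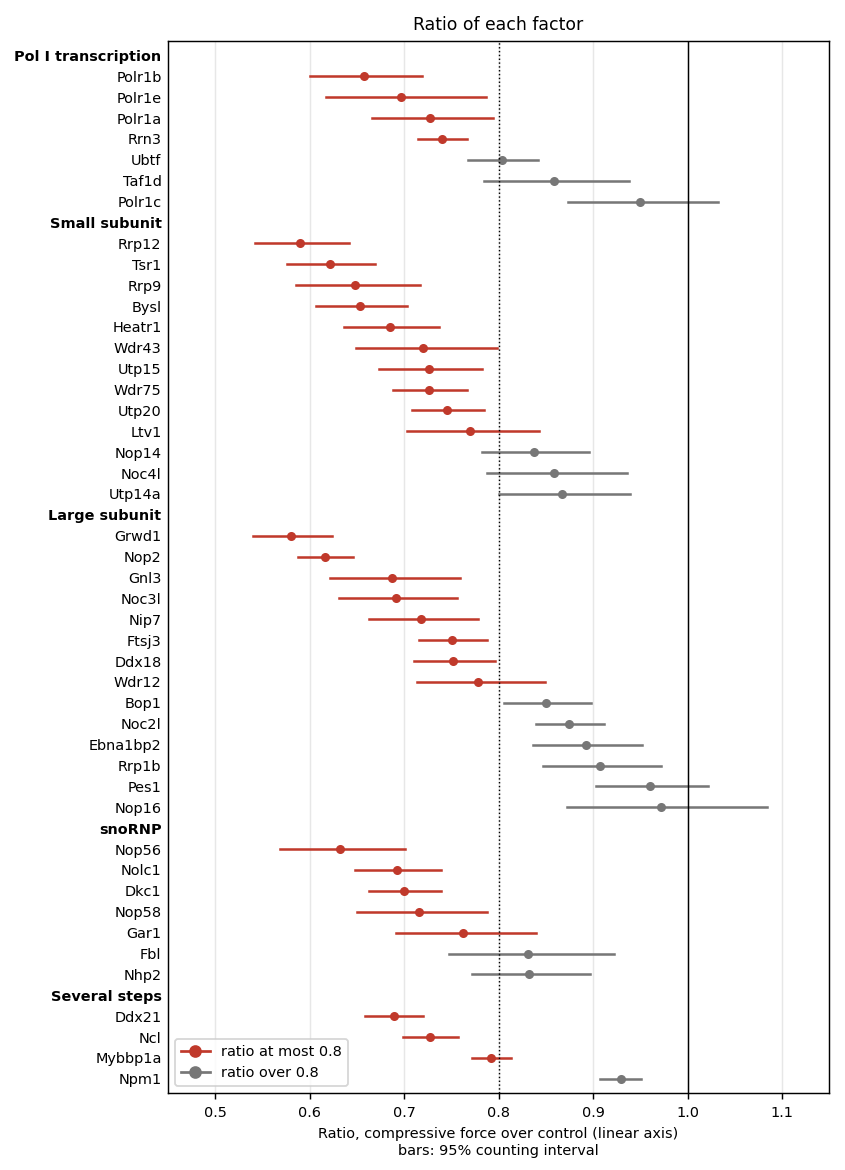
Ratio of the compressed over the control library (linear axis) with 95% counting intervals for each factor, grouped by step; the solid line marks a ratio of 1 and the dotted line 0.8. Points run from 0.581 to 0.972, and only the bars of Polr1c, Pes1 and Nop16 reach the line at 1.

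In the Pol I transcription group, 3 of the 4 polymerase subunits were called lower. Polr1b, the second largest subunit and part of the catalytic core, had 788 counts under force and 1237 in control, a ratio of 0.657 (95% counting interval 0.600 to 0.719). Polr1e, a subunit that aids initiation, had 450 counts under force and 666 in control, a ratio of 0.697 (0.617 to 0.787). Polr1a, the largest and catalytic subunit, had 862 counts under force and 1223 in control, a ratio of 0.727 (0.666 to 0.794). Polr1c, which is built into both RNA polymerase I and RNA polymerase III, had 1083 counts under force and 1177 in control, a ratio of 0.949 (0.873 to 1.03), so that 1 lay inside the interval. The intervals of Polr1a, Polr1b and Polr1e lay wholly below that of Polr1c. The ranges of own and shared subunits overlapped. The 6 subunits found in RNA polymerase I alone had ratios of 0.657 to 0.882, with a median of 0.765 and every interval below 1. The 5 shared also with RNA polymerase II ran from 0.608 to 1.01, with a median of 0.899. The lowest of these was Polr2k, used by all the nuclear RNA polymerases, at 0.608 (0.494 to 0.746). It had 152 counts under force and 258 in control.

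Factors that bring the polymerase to the promoter differed less evenly. Rrn3, whose promoter with a pair of E-boxes is printed above, had 5502 counts under force and 7667 in control, a ratio of 0.741 (0.715 to 0.767). Ubtf, the gene of UBF, an HMG-box protein spread along active ribosomal DNA, had 3299 counts under force and 4235 in control, a ratio of 0.804 (0.768 to 0.841). Taf1d, a subunit of SL1, had 904 counts under force and 1087 in control, a ratio of 0.858 (0.785 to 0.938). Rrn3 was called lower, and the other two were lower by less than the call limit. Of the 7 genes of this group 4 were called lower, and the median log2 ratio was -0.43.

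The lowest values of the small subunit group included factors that act late, on the nearly finished particle. Rrp12, a HEAT-repeat protein that in yeast aids export of the subunits, lies on chromosome 19 from 41859483 to 41896153 and had 866 counts under force and 1515 in control, a ratio of 0.590 (0.542 to 0.642). Tsr1, a GTPase-like maturation factor, had 1107 counts under force and 1839 in control, a ratio of 0.621 (0.576 to 0.670). Bysl, the counterpart of yeast Enp1, had 1181 counts under force and 1865 in control, a ratio of 0.653. Ltv1, a late assembly factor known from yeast, stood at 841 counts under force and 1127 in control, a ratio of 0.770. Rrp9, a protein of the U3 snoRNP that starts the processome, had 628 counts under force and 1000 in control, a ratio of 0.648 (0.586 to 0.717).

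Members of the UtpA (t-UTP) subcomplex, which binds the nascent precursor first, lay close together. Heatr1 had 1222 counts under force and 1841 in control, a ratio of 0.685 (0.637 to 0.737). Wdr43, Utp15 and Wdr75 had ratios of 0.720, 0.726 and 0.726, with 623, 1185 and 2238 counts under force and 893, 1684 and 3179 counts in control. Another pair of proteins of the same subcomplex that are not among the 45, Utp4 and Nol11, had ratios of 0.749 and 0.715, so all 6 were called lower within a span of 0.685 to 0.749. The UtpB subcomplex, which joins the processome with the U3 particle, had 4 of 6 genes called lower, with ratios of 0.680 to 0.864. Both subcomplexes were picked out after their values were seen.

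Scaffold proteins of the processome completed the small subunit group. Utp20, a very large HEAT-repeat scaffold, had 2614 counts under force and 3618 in control, a ratio of 0.746 (0.709 to 0.784). Utp14a, which in yeast activates a helicase of the processome, had 1127 counts under force and 1341 in control, a ratio of 0.867 (0.80 to 0.939). Noc4l and its partner Nop14 had ratios of 0.859 (0.788 to 0.936) and 0.837, and neither was called. Of the 13 genes 10 were called lower, all 13 had intervals below 1, and the median log2 ratio was -0.46.

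Noc4l shares its start region with Ddx51, a helicase gene of large subunit assembly that is not among the 45. The RefSeq spans of both lie on chromosome 5, and the 49 bases between them, chr5:110653383-110653431, are printed on the minus strand, that of Noc4l, with no part in capitals.
Noc4l to Ddx51: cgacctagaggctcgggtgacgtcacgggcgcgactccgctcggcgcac
The ratios stood close together, at 0.859 for Noc4l and 0.857 for Ddx51. Of the 166 genes of the pathway examined here, those whose deposited symbol is in RefSeq were compared by position. The 6 genes found under an older symbol, and Skiv2l2, which had no RefSeq span, were left out. Noc4l and Ddx51 were the pair that lay within 20000 bases of each other, and this pair was chosen after its values were seen.

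Large subunit assembly held both the lowest and the highest member. Grwd1, whose yeast counterpart escorts a ribosomal protein to the nucleolus, lies on chromosome 7 from 45825223 to 45830994 and had 1204 counts under force and 2140 in control, a ratio of 0.581 (0.541 to 0.623). Nop2 had 2808 counts under force and 4701 in control, a ratio of 0.616 (0.588 to 0.646). Gnl3, the nucleolar GTPase nucleostemin, had 656 counts under force and 985 in control, a ratio of 0.687 (0.622 to 0.759). These 3 were far from Nop16, a nucleolar protein of large subunit precursors, with 652 counts under force and 692 in control, a ratio of 0.972 (0.872 to 1.08).

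Within the PeBoW complex, which processes the precursor of the large subunit, the genes of the partners had ratios from 0.778 to 0.960. Pes1 had 1997 counts under force and 2146 in control, a ratio of 0.960 (0.903 to 1.02), and its interval included 1. Bop1 had 2426 counts under force and 2943 in control, a ratio of 0.851 (0.806 to 0.898). Wdr12 had 900 counts under force and 1193 in control, a ratio of 0.778 (0.713 to 0.850). The intervals of Bop1 and Wdr12 lay below that of Pes1, and Wdr12 was the one called. These intervals cover counting error only, so nothing is read from that gap. Pes1 also holds an E-box at its start, as printed above.

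The remaining large subunit genes filled the range between these. Noc3l, a partner of Noc2l in early particles, had a ratio of 0.691 (0.631 to 0.756) against 0.874 (0.839 to 0.911) for Noc2l, with intervals that did not overlap. Nip7, a small factor of precursor processing, stood at 0.718, the methyltransferase-like Ftsj3 at 0.751, and the DEAD-box helicase Ddx18 at 0.752, and all 3 were called lower. Ebna1bp2, the counterpart of yeast Ebp2, had a ratio of 0.892 (0.836 to 0.952) and Rrp1b, a nucleolar protein, 0.908 (0.847 to 0.972), and neither was called. Of the 14 genes 8 were called lower, 12 had intervals below 1, and the median log2 ratio was -0.39.

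The snoRNP group differed within both families of guide particles. Nop56, a scaffold of the box C/D particle, had 576 counts under force and 941 in control, a ratio of 0.632 (0.568 to 0.701). Its paralogue Nop58 had 726 counts under force and 1046 in control, a ratio of 0.716 (0.651 to 0.788). Fibrillarin (Fbl), the methyltransferase of that particle, had 648 counts under force and 805 in control, a ratio of 0.831 (0.748 to 0.922). Nop56 had the lowest ratio of these box C/D genes, with a counting interval below that of Fbl.

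Dyskerin (Dkc1), the pseudouridine synthase of the box H/ACA particle, had 2200 counts under force and 3244 in control, a ratio of 0.70 (0.663 to 0.739). Its partners Gar1 and Nhp2 had 723 and 1274 counts under force and 979 and 1580 counts in control, with ratios of 0.762 (0.691 to 0.840) and 0.832 (0.772 to 0.896). Nolc1, a chaperone that binds both kinds of particle, had 1531 counts under force and 2283 in control, a ratio of 0.692 (0.648 to 0.739). Of the 7 genes 5 were called lower, with Fbl and Nhp2 the others, and the median log2 ratio was -0.48.

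Among nucleolar proteins of several steps, nucleophosmin differed least although it had the most reads. Npm1 had 13234 counts under force and 14700 in control, a ratio of 0.929 (0.907 to 0.951). Nucleolin (Ncl), which binds ribosomal DNA and its transcript, had 4078 counts under force and 5787 in control, a ratio of 0.727 (0.698 to 0.757). Ddx21, a helicase at ribosomal DNA and on snoRNAs, had 3276 counts under force and 4908 in control, a ratio of 0.689 (0.659 to 0.720). Mybbp1a, a Myb-binding protein that also acts on ribosomal RNA synthesis, had 10091 counts under force and 13146 in control, a ratio of 0.792 (0.772 to 0.813). Npm1 has processed pseudogene copies, and how reads that align to several places were counted is not given, so its ratio is uncertain.

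**Figure D3:**
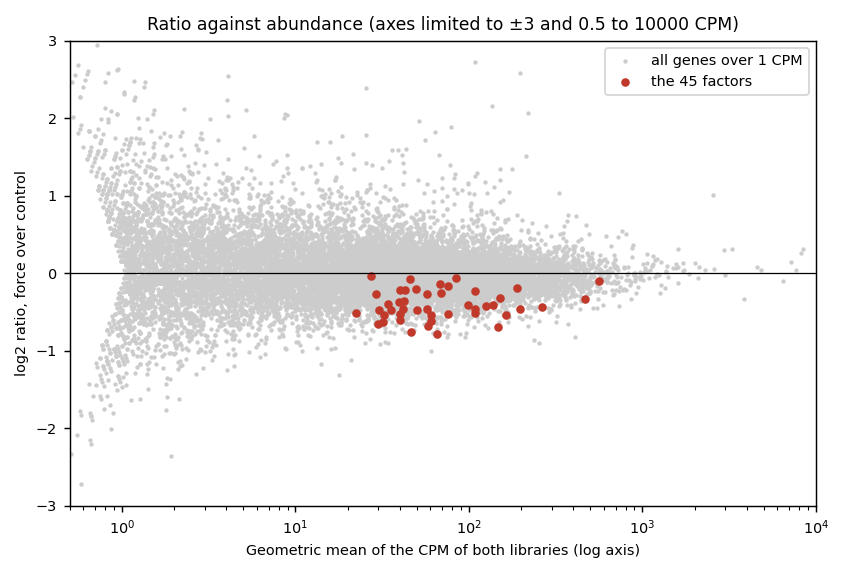
Log2 ratio of the compressed over the control library against the geometric mean CPM of both libraries (log axis) for all genes above 1 CPM (grey; 26 lie outside the plotted range) and the 45 factors (red). The factors lie between log2 ratios of -0.78 and -0.04, at levels of 18.5 CPM or more in each library, and reach up to the middle of the grey cloud, where 46.0% of genes have a ratio at or below that of the highest factor.

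Members were spread over 18 chromosomes, with 7 on chromosome 11 as the most on one. The RefSeq spans of 16 members overlap another gene with a row in the table, and for 10 of these the other gene had at least 10% of the member's control counts. Strand was not stated for the counting, so the reads of such pairs are uncertain. The longest of these 10 overlaps was 5314 bases, between Tsr1 and Srr, the serine racemase gene, which had 687 counts under force and 526 in control. Bop1 overlaps Scx, a tendon transcription factor gene, over 2058 bases, and Scx had 408 counts under force and 388 in control. The log2 ratios of Srr and Scx were above 0, at 0.43 and 0.12, and the overlaps of the other 8 members were between 3 and 496 bases.

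Introns of ribosome factors also house small nucleolar RNAs. RefSeq places 25 snoRNA genes within the spans of 8 members, and 11 of them, in 6 members, had a row in the deposited table. Together these 11 had 452 counts under force and 637 in control. Of the 10 above the CPM minimum 9 had a ratio below 1. Among all genes above that minimum 51.4% had a ratio below 1 and 11.4% were called lower. In Nop58, Snord11 had 15 counts under force and 40 in control, and Snord70 had 49 and 79. In Ncl, Snora75 had 43 counts under force and 82 in control, and was called lower with Snord11, Snord70 and Snord53 of Wdr43. Snord92, also in Wdr43, went the other way with 30 counts under force and 21 in control, but its interval of 0.816 to 2.71 included 1. Counts this low leave wide intervals, and whether the reads come from the snoRNA or from its host's unspliced transcript was not tested.

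Over all 123 snoRNA rows, counts summed to 6280 under force and 7806 in control. Of the 91 above the CPM minimum 69 had a ratio below 1, 27 were called lower and 1 higher, and the median log2 ratio was -0.27. Among all genes above that minimum 51.4% had a ratio below 1, 11.4% were called lower and 14.3% higher. Box C/D snoRNAs, taken by the symbol Snord, had a median of -0.19 over 57 genes, and box H/ACA snoRNAs, by the symbol Snora, had -0.32 over 32. The snoRNA rows were examined after the values of the members were seen, and short RNAs are recovered unevenly by standard libraries.

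Rows of ribosomal RNA and of RNAs that process it included 2 called higher, Rn18s-rs5 and Rnu3b1, and 0 called lower. Rn18s-rs5, a small subunit ribosomal RNA sequence that RefSeq lists as a pseudogene, had 88587 counts under force and 45270 in control, a ratio of 2.02 (2.0 to 2.04). Rmrp, the RNA of RNase MRP that cuts the precursor, had 10475 counts under force and 9864 in control, a ratio of 1.10. The U3 genes Rnu3b1 and Rnu3a had 142 and 35 counts under force and 111 and 37 in control, and the ratio of Rnu3a, 0.976 (0.597 to 1.59), had an interval that included 1. The interval of Snord118, the U8 snoRNA gene, at 1.19 (0.963 to 1.46) also included 1. Rn7sk and Rpph1, which RNA polymerase III makes and which have other tasks, had ratios of 1.24 and 1.17. The labels do not describe removal of ribosomal RNA, and these rows do not measure RNA polymerase I output, so they are values only.

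The pathway beyond the 45 genes was examined in 121 further genes of ribosome assembly. They are those left after the 45 were taken with the values in view, so their counts are a description too. All 121 were found, 120 passed the CPM minimum, and of these 47 were called lower and 2 higher, with a median log2 ratio of -0.27. Riok2, with 3 counts under force and 0 in control, was the one below the minimum. Their share called lower was 39.2%, beside 11.4% over all genes.

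Further large subunit factors held the lowest ratio among the 166 genes examined. Rrs1, which in yeast helps load the 5S particle, had 540 counts under force and 1050 in control, a ratio of 0.531 (0.477 to 0.589). Its partner Rpf2 stood at 0.671. Wdr74, the counterpart of yeast Nsa1, had 395 counts under force and 721 in control, a ratio of 0.565 (0.499 to 0.640). At the other end Nle1 had a ratio of 1.16 (1.01 to 1.33), and Rrp1, the paralogue of the member Rrp1b, had 1.05 (0.997 to 1.11). Of these 45 further large subunit genes 21 were called lower and 0 higher, with a median of -0.30.

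Further small subunit factors had 16 of 38 called lower and 0 higher, and a median of -0.29. Pno1, a late factor, stood at 0.660 (0.616 to 0.706) and Mphosph10, a U3 protein, at 0.666 (0.595 to 0.744). Imp3 at 1.13 and Utp11 at 1.08 were the highest, both with intervals that included 1. Further snoRNP genes had 6 of 11 called lower, 0 called higher and a median of -0.34. Their lowest were the assembly factors Znhit6 at 0.652 and Shq1 at 0.711. The AAA+ ATPase Ruvbl2, at 1.248 just under the limit of 1.25, and Nufip1, at 1.24, were the highest, and both intervals lay above 1.

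Further RNA polymerase I genes did not share one direction. Taf1c, an SL1 subunit, had 250 counts under force and 413 in control, a ratio of 0.625 (0.532 to 0.733), while the SL1 subunits Taf1a and Taf1b had ratios of 0.995 and 1.09 with intervals that included 1. The polymerase subunits Cd3eap, Twistnb and Znrd1 stood at 0.802, 0.819 and 0.882, and Polr1d, shared with RNA polymerase III like Polr1c, at 0.893. Higher values came from Ttf1, the terminator-binding factor, at 1.19 (1.07 to 1.33), and from Baz2a. Baz2a, a subunit of the NoRC complex that silences ribosomal DNA repeats, had 4648 counts under force and 3588 in control, a ratio of 1.34 (1.28 to 1.4), and was called higher. Of these 11 genes 1 was called lower and 1 higher, and the median was -0.14.

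The exosome and its helpers, which trim the precursor and degrade many other RNAs, had 3 of 15 called lower and 1 higher, with a median log2 ratio of -0.12. Exosc6 at 0.729 and the nuclease Dis3 at 0.750 were the lowest. Mphosph6, an exosome-associated protein, at 1.36 (1.23 to 1.52) and Exosc8 at 1.13 were the highest.

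**Figure D4:**
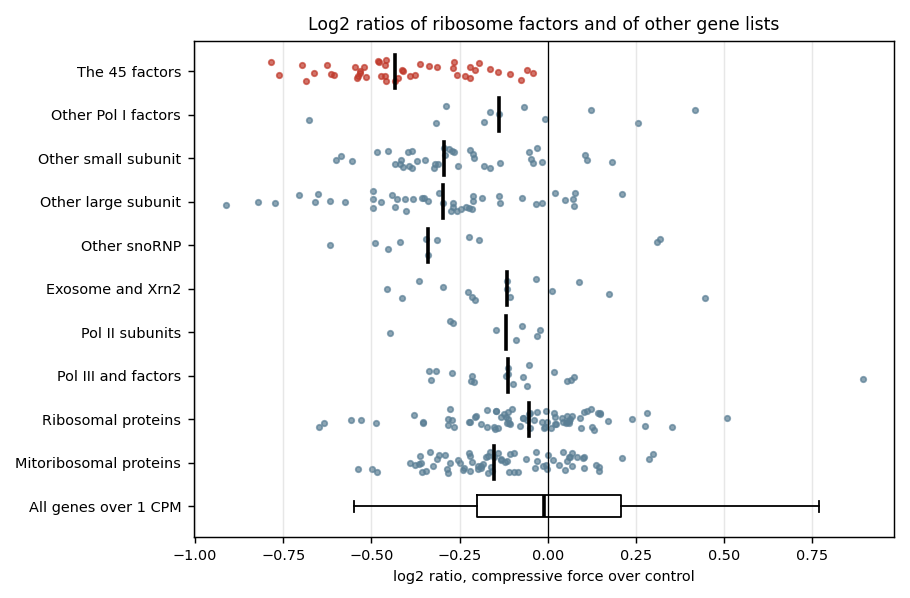
Log2 ratio of the compressed over the control library for each gene (points) in the 45 factors, 5 lists of other pathway genes and 4 comparison lists; thick lines are medians, and the box holds the middle of all genes above 1 CPM with whiskers at percentiles 5 and 95. The median of the 45 factors is -0.43, against -0.05 for ribosomal proteins and -0.01 for all genes.

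Gene lists most like the members are given for scale, by counts and medians with no test of the difference. Subunits found in RNA polymerase II alone had 1 of 8 called lower and a median log2 ratio of -0.12. RNA polymerase III subunits with TFIIIB and TFIIIC had 2 of 19 called lower, 1 called higher and a median of -0.11, the higher one being Polr3gl with a ratio of 1.86 (1.66 to 2.08). Subunits shared between polymerases had 2 of 5 called lower, Polr2k and Polr2l at 0.763 (0.660 to 0.880), and a median of -0.15. Of 78 cytoplasmic ribosomal protein genes above the minimum 8 were called lower and 2 higher, with a median of -0.05. Many of those genes have processed copies, so single values are uncertain. Mitochondrial ribosomal protein genes had 12 of 75 called lower, 0 higher and a median of -0.15. In the order given, the shares called lower in these lists were 12.5%, 10.5%, 40%, 10.3% and 16%. Over all genes above the CPM minimum 11.4% were called lower and 14.3% higher.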

How the data were processed

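The 2 libraries of OCCM-30 cells, 1 per group, were compared. The deposited table holds raw read counts per gene made by the authors; per the submitters' processing notes, HISAT2 and GRCm38 were used. No source used here gives the counting tool, its annotation, whether strand was used, or how multiply aligned reads were handled. From these counts, edgeR 4.0.16 in R 4.3.3 gave TMM-scaled library sizes, and CPM, ratios and exact Clopper-Pearson conditional intervals (scipy 1.17.1) were computed, with a prior count of 0.5 in log2 ratios. Intervals and floors of 3 counts cover counting error only, since reads are not independent molecules. No p-value was computed, as 1 library per group leaves no residual degrees of freedom. The interval and call rule were tested on counts simulated with counting error alone. Such counts hold no variation between cultures, so how the call rule behaves under that variation was not tested.

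The members and lists were chosen with earlier results of these data known. In each step the 3 lowest and 2 highest ratios were to be named, with the best known factors, and in each further list the 2 lowest and 2 highest. Older symbols were matched through RefSeq genes of GRCm38.p6. Alternatives were total-count, DESeq2 1.42.0, upper-quartile and loess scaling, CPM minima of 0 and 10, a prior count of 5, other fold limits, no interval requirement, and an assumed coefficient of variation of 0.1. TMM on mRNA rows alone was added after seeing the data. Subcomplexes, snoRNAs and overlapping genes were examined after their values were seen.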

Additional observations from a re-analysis of the deposited data

Results flagged for a closer look

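Reads on Rn18s-rs5, a ribosomal RNA row outside the comparisons of protein-coding genes, stood above the control level, at a ratio of 2.02 in the compressed over the control library. The U3 row Rnu3b1 also stood above it, at 1.32 (95% counting interval 1.02 to 1.71). Neither value has a replicate check, and their source was not tested.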

How the results depend on the processing

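Under total-count, DESeq2, upper-quartile and loess scaling, TMM on mRNA rows, no CPM minimum, a minimum of 10 and a prior count of 5, all 45 members kept a log2 ratio below 0, and 29 to 31 were called lower and 0 higher. The share of all tested genes called lower was 10.8% to 12.1% under these settings, apart from 4.08% with no CPM minimum. The median log2 ratio of the members ran from -0.45 with DESeq2 to -0.40 with the loess fit. At a fold limit of 1.5, 8 members were called lower, where 3.71% of all genes were. At a fold limit of 2 there were 0, where 0.929% of all genes were called lower. A stricter limit can only reduce such counts. With intervals widened for an assumed coefficient of variation of 0.1 between cultures, 26 were called lower, where 5.99% of all genes were. No paired analysis was possible because each group has 1 library, and none could be left out. With 1 library per group no statement here reaches beyond these cultures.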
